A study of Mus musculus with 12 samples.

Results

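The genes described here are the GILZ family, Tsc22d1, Tsc22d2, Tsc22d3 and Tsc22d4, and the tristetraprolin family, Zfp36, Zfp36l1 and Zfp36l2. They were taken as every non-control probe that the array files name after 1 of these genes, which gave 14 probes for 7 genes among 41174 distinct probes. The RNA came from MEFs, that is, fibroblasts of the embryonic connective tissue, which were cultured from E12.5 mouse embryos on a C57Bl/6 background, and each of 4 groups had 3 one-colour (Cy3) Agilent arrays, 12 in all. The groups were homozygous GR-C3 knockin cells given 100 nM dexamethasone (Dex) for 6 h, homozygous GR-C3 knockin cells given vehicle for 6 h, wild-type (WT) cells given 100 nM Dex for 6 h, and WT cells given vehicle for 6 h. Dex is a synthetic glucocorticoid that activates the glucocorticoid receptor (GR), the product of Nr3c1. In the knockin, the start codons of all other translational isoforms were mutated, so that Nr3c1 can give only GR-C3, one of the shorter forms of the receptor. The knockin line came from 1 ES cell clone, and its hygromycin cassette had been removed with Flp. The comparisons ask which of these genes Dex changes in each genotype, and whether the response and the level differ in cells that make the GR-C3 form alone. The labels speak of biological replicates without saying whether they were separate embryos or cultures, so each p-value covers only the sample-to-sample spread seen here.

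Tsc22d3 encodes GILZ, the glucocorticoid-induced leucine zipper, a small protein that binds NF-kappa-B, AP-1 and members of the Ras and Raf signalling chain and lowers their activity. Its promoter region is a known direct target of the GR, and it is one of the anti-inflammatory effectors of glucocorticoids. Zfp36 encodes tristetraprolin (TTP), a zinc finger protein that binds AU-rich elements in the messenger RNAs of cytokines and early response genes and recruits the deadenylation machinery, which shortens their poly(A) tails and leads to their decay. Zfp36l1 and Zfp36l2 encode related proteins that bind the same kind of element. The other TSC22D proteins share the TSC box and leucine zipper of GILZ.

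The probes of Tsc22d3 and Zfp36 are shown first, since these 2 genes carry most of the response and since the probes of Zfp36 gave different sizes of it. Each line holds 30 bases of a 60-base probe, 5′ to 3′, in the letters of the file. Capitals mark the nonamer TTATTTATT, in which T stands for U of the RNA and which is a preferred binding sequence of TTP. Only the last line, of Zfp36, holds it.
Tsc22d3 A_51_P235816: ttcttttttaagttcttgtggggaaacttt
Tsc22d3 A_51_P235821: gtgctgactacatagaatggggttgagaga
Tsc22d3 A_52_P600518: atgactgttcctatgaagaagccacttgtg
Zfp36 A_51_P158538: tggtctcctggaatcttaagtgctgtgaag
Zfp36 A_52_P80944: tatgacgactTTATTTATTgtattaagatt
The nonamer was found, in the probe's own orientation, in 1 of the 14 probes and in 0.219% of all 41174 probes. That Zfp36 probe has a GC content of 21.7%, against 45% for the other Zfp36 probe. The files place the 3 Tsc22d3 probes on chromosome X of build mm7, at 135258941 to 135259001, 135259067 to 135259126 and 135259625 to 135259684. They place the Zfp36 probes on chromosome 7, at 25310682 to 25310724 and 25310819 to 25310878. The first of these 2 spans, of probe A_51_P158538, is 43 bases long and so shorter than its 60-base probe. Exons under the probes are not given, since no annotation of mm7 was used.

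Promoter sequences, from 250 bases before to 50 after each start, came from the RefSeq table of build GRCm38.p6, which held 10 promoters for Tsc22d1, Tsc22d3, Zfp36 and Zfp36l1. No promoter was matched for Tsc22d2, Tsc22d4 and Zfp36l2. On both strands, 5 motifs were searched: the full glucocorticoid response element, made of TGTTCT and its inverted copy 3 bases apart, its looser core ACANNNTGT, the single site TGTTCT, the TATA box TATAAA and the AP-1 site TGANTCA. They were found in 0.00913%, 6.85%, 19%, 13.6% and 7.81% of all 32851 promoters of that length. Of the 10 promoters, 2 held the single TGTTCT site, 2 the TATA box and 1 the AP-1 site, and none held the full or the looser element, which says only that these letters are not in these windows. The promoters of the genes that rose are printed with the TGTTCT site in capitals: of the 3 promoters of Tsc22d3, the 1 that holds it, at chrX:140600473-140600772 on the minus strand, and the promoter of Zfp36, at chr7:28379179-28379478 on the minus strand, which holds none of the motifs.
Tsc22d3 promoter: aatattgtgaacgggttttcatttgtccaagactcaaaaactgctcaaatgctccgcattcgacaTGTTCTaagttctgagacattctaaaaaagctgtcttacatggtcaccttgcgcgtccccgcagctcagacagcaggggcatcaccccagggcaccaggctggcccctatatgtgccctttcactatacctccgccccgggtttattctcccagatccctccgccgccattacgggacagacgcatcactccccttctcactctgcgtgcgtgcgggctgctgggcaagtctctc
Zfp36 promoter: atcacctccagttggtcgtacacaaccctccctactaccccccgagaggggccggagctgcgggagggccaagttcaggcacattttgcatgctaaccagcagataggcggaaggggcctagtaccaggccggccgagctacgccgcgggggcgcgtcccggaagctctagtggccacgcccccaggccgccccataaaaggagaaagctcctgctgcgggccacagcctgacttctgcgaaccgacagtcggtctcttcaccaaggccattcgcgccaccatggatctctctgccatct

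All levels below are log2 processed signals relative to the 75th percentile of their array, and a level is compared with other levels of the same probe only. All 14 probes were well above background on all 12 arrays by the scanner's call, and none was saturated. Of all probes, 70.7 to 78.4% per array exceeded background, and precision is limited by how many arrays each group has. All 10 fibroblast markers were above background in every group. One array, labelled WT vehicle replicate 1, was unlike its group: over probes, its values correlated at 0.981 to 0.982 with the other WT vehicle arrays and at 0.987 to 0.988 with the WT Dex arrays. The other WT vehicle arrays correlated at 0.998 with each other and at 0.983 to 0.992 with the WT Dex arrays, a range that holds the values of replicate 1. WT vehicle replicate 1 was alone on slide 1 and on its scan day. Earlier results of these data had shown it apart from its group. The changes of the 7 genes are therefore given with all 12 arrays and with 11 arrays, without it, a choice made with those results known. For other genes the 11-array values lead, and the 12-array values follow for their changes in WT cells. GR-C3 values and differences under Dex do not use this array and are of the same size in both fits. Slide 2 held 1 WT Dex array and 2 WT vehicle arrays, and slide 4 held 3 GR-C3 Dex arrays and 1 GR-C3 vehicle array, so the Dex changes could also be taken within a slide. No slide held both genotypes under 1 treatment. The array measures bulk RNA, in which fewer cells of a type and less RNA per cell cannot be told apart.

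Dex raised Tsc22d3 and Zfp36 in both genotypes and Tsc22d4 in WT cells when 11 arrays were used, and none of the 7 genes passed the test in either genotype with all 12. In GR-C3 cells, with 11 arrays, 2 of the 7 genes were called higher and 0 lower at an adjusted p under 0.05, against 1.77% of all probes called higher and 0.925% lower. In WT cells 3 were called higher and 0 lower, against 4.81% and 6.35% of all probes. With all 12 arrays 0 of the 7 genes were called by limma for Dex in GR-C3 cells, where 1 had an unadjusted p under 0.05, against 0.110% of all probes called and 11% with such a p. In WT cells the 12-array count was also 0, with 4 genes under the unadjusted threshold, against 0.0485% and 16.7% of all probes. The estimate of the spread, which the 4 groups share, is what changes in the GR-C3 fit with the array labelled WT vehicle replicate 1.

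**Figure D1:**
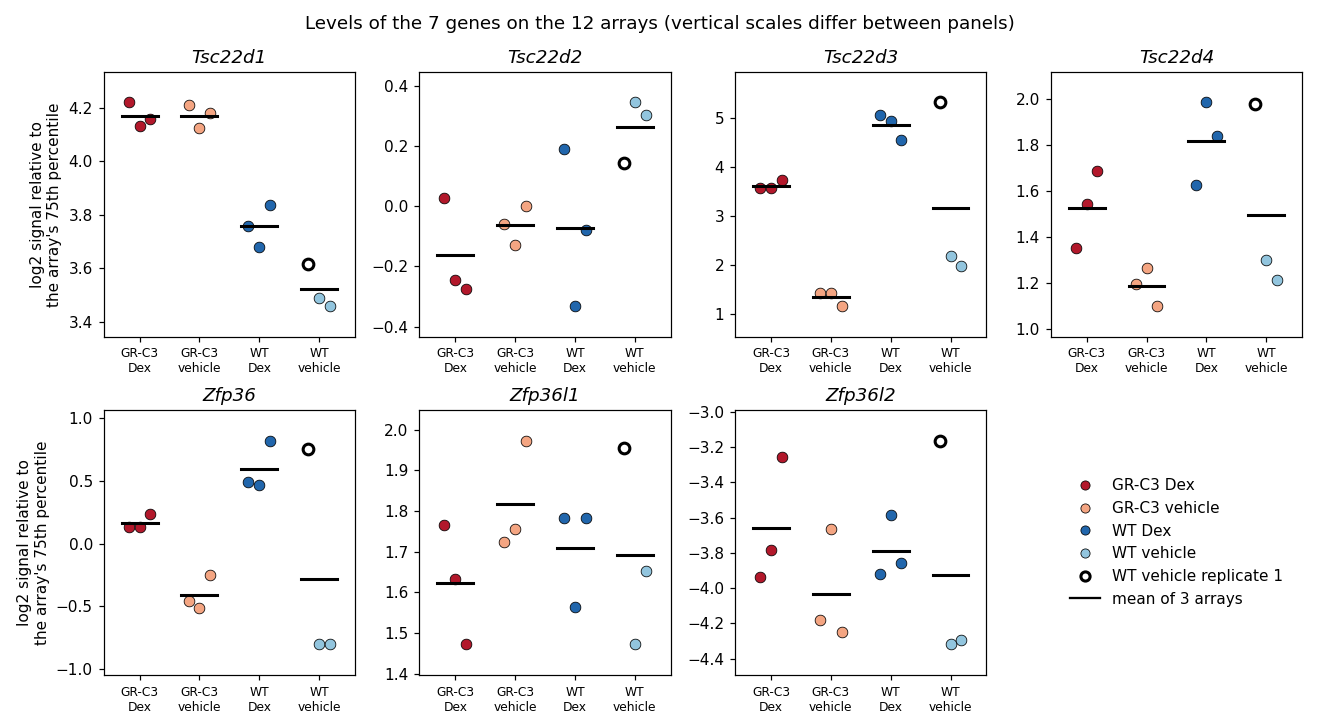
Log2 signal of the brightest probe of each of the 7 genes, relative to the array's 75th percentile (vertical axis), on the 12 arrays in their 4 groups (horizontal axis); each point is an array, the open point is WT vehicle replicate 1 and each line is the mean of 3 arrays. The open point of Tsc22d3 lies at 5.31, above the other WT vehicle arrays at 2.18 and 1.99 and level with the WT Dex arrays at 4.55 to 5.05.

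Tsc22d3, the GILZ gene, had the largest Dex change of the 7 genes in both genotypes with 11 arrays. In GR-C3 cells its brightest probe read 3.57, 3.56 and 3.73 under Dex and 1.44, 1.43 and 1.16 under vehicle. In WT cells it read 5.05, 4.93 and 4.55 under Dex and 5.31, 2.18 and 1.99 under vehicle, where 5.31 is replicate 1. Every Dex array of the GR-C3 cells thus lay above every vehicle array, and in WT cells this held for all vehicle arrays except replicate 1, which lay above all WT Dex arrays.

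With 11 arrays the Dex change of this probe was 2.28 ± 0.14 (log2 change ± standard error) in GR-C3 cells, a 4.84-fold rise (95% interval 1.96 to 2.59, adjusted p = 3.61e-05, limma). In WT cells it was 2.76 ± 0.16, a 6.78-fold rise (95% interval 2.41 to 3.11, adjusted p = 6.89e-06). By size of the change it ranked 18 from the top in GR-C3 cells and 37 in WT cells among 31445 probes. With all 12 arrays the change was 2.28 ± 0.66 in GR-C3 cells (adjusted p = 0.226) and 1.69 ± 0.66 in WT cells (adjusted p = 0.243). Within slide 4 it was 2.46 in GR-C3 cells, and within slide 2 it was 2.96 in WT cells, and both were called with slide as a block.

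The other probes of Tsc22d3 gave Dex changes of like size. Probe A_51_P235821 read 3.21, 3.31 and 3.43 in GR-C3 Dex, against 1.06, 1.06 and 0.83 in GR-C3 vehicle. In WT Dex it read 4.81, 4.63 and 4.44, against 5.11, 1.86 and 1.71 in WT vehicle. Its changes with 11 arrays were 2.33 ± 0.12 in GR-C3 cells (adjusted p = 1.27e-05) and 2.85 ± 0.13 in WT cells (adjusted p = 1.98e-06). Probe A_52_P600518 lay farthest from these 2 on the chromosome. It read 1.89, 1.88 and 1.92 in GR-C3 Dex, against -0.59, -0.49 and -0.47 in GR-C3 vehicle. In WT Dex it read 3.08, 2.81 and 2.85, against 2.78, 0.08 and 0.12 in WT vehicle. On this probe, unlike the other 2, WT vehicle replicate 1 lay just below the lowest WT Dex array. The 11-array changes were 2.41 ± 0.09 in GR-C3 cells (adjusted p = 1.58e-06) and 2.81 ± 0.10 in WT cells (adjusted p = 3.03e-07). Neither probe was called in either genotype with all 12 arrays, and their WT changes were 1.74 ± 0.68 (adjusted p = 0.241) and 1.92 ± 0.55 (adjusted p = 0.155).

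Tsc22d4, which encodes a larger TSC22D protein that forms dimers with the other members, rose in WT cells with 11 arrays. In GR-C3 cells its brightest probe read 1.35, 1.54 and 1.69 under Dex and 1.20, 1.27 and 1.10 under vehicle. In WT Dex it read 1.63, 1.99 and 1.84, against 1.98, 1.30 and 1.21 in WT vehicle. The GR-C3 groups did not overlap, and the WT groups overlapped only through replicate 1 of the vehicle arrays. The 11-array change was 0.34 ± 0.12 in GR-C3 cells, which did not pass the test (adjusted p = 0.196), and 0.56 ± 0.13 in WT cells (1.48-fold, adjusted p = 0.0253).

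The WT call of Tsc22d4 was made on 2 of its 3 probes. Probe A_51_P215896 changed by 0.58 ± 0.13 (adjusted p = 0.02), and probe A_52_P384392 gave 0.54 ± 0.21 (adjusted p = 0.13). With all 12 arrays the brightest probe gave 0.32 ± 0.19 (adjusted p = 0.417), and the other probes gave 0.28 ± 0.21 and 0.07 ± 0.34. Within slide 2 it gave 0.37, not called with slide as a block (adjusted p = 0.299). The WT call was also lost with the 2 WT groups fitted alone (adjusted p = 0.0948) and on leaving out WT Dex replicate 2 or 3 or WT vehicle replicate 2 or 3, with values of 0.48, 0.55, 0.61 and 0.52.

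Tsc22d1, the founding member of the family, which is induced by transforming growth factor beta, did not pass the test for Dex in either genotype. It read 4.22, 4.13 and 4.16 in GR-C3 Dex, against 4.21, 4.12 and 4.18 in GR-C3 vehicle. In WT Dex it read 3.76, 3.68 and 3.84, against 3.62, 3.49 and 3.46 in WT vehicle. The GR-C3 groups overlapped, whereas the 3 WT Dex arrays all lay above the WT vehicle arrays. With 11 arrays the change was -0.00 ± 0.08 in GR-C3 cells (95% interval -0.17 to 0.17) and 0.28 ± 0.09 in WT cells (95% interval 0.09 to 0.48, adjusted p = 0.0651). With all 12 the WT change was 0.24 ± 0.09 (adjusted p = 0.241).

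Tsc22d2, a less studied member of the family, lay lower under Dex in WT cells without passing the test. In GR-C3 cells its brighter probe read 0.03, -0.24 and -0.27 under Dex and -0.06, -0.13 and 0.00 under vehicle. In WT Dex it read 0.19, -0.33 and -0.08, against 0.14, 0.34 and 0.30 in WT vehicle. Only without replicate 1 did the WT vehicle arrays lie above all WT Dex arrays. The 11-array change was -0.10 ± 0.14 in GR-C3 cells (adjusted p = 0.74) and -0.40 ± 0.15 in WT cells (adjusted p = 0.126). The other probe gave -0.19 ± 0.18 in GR-C3 cells and -0.39 ± 0.20 in WT cells. The 12-array WT changes of the 2 probes were -0.34 ± 0.14 (adjusted p = 0.268) and -0.13 ± 0.23 (adjusted p = 0.82).

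Zfp36, the TTP gene, rose in both genotypes with 11 arrays. Its brighter probe, A_51_P158538, read 0.13, 0.13 and 0.24 in GR-C3 Dex, against -0.46, -0.52 and -0.25 in GR-C3 vehicle. In WT cells it read 0.49, 0.47 and 0.82 under Dex and 0.76, -0.81 and -0.80 under vehicle. All GR-C3 Dex arrays lay above the GR-C3 vehicle arrays. In WT cells, replicate 1 of vehicle fell within the range of the Dex arrays and the other 2 lay far below it. The 11-array change was 0.575 ± 0.12 in GR-C3 cells (1.49-fold, 95% interval 0.32 to 0.83, adjusted p = 0.0299) and 1.40 ± 0.13 in WT cells (2.64-fold, 95% interval 1.11 to 1.69, adjusted p = 0.000121).

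The probe with the TTP nonamer, A_52_P80944, read -1.91, -1.86 and -2.03 in GR-C3 Dex, against -2.68, -2.92 and -2.65 in GR-C3 vehicle. In WT Dex it read -1.85, -2.58 and -2.35, against -2.07, -3.09 and -3.06 in WT vehicle. Its change with 11 arrays was 0.81 ± 0.17 in GR-C3 cells (1.76-fold, adjusted p = 0.0333) and 0.82 ± 0.19 in WT cells (1.76-fold, adjusted p = 0.0213). In this fit the probes thus differ in whether the rise was larger in WT cells. The first probe gave the larger value there, and the second gave nearly the same value in both genotypes. With slide as a block, however, the second probe too gave the larger value in WT cells, 1.23 against 0.71 in GR-C3 cells. The difference between the probes was not tested.

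With all 12 arrays the first Zfp36 probe gave 0.575 ± 0.34 in GR-C3 cells (adjusted p = 0.563) and 0.88 ± 0.34 in WT cells (adjusted p = 0.233). Within slide 4 it gave 0.42 in GR-C3 cells, not called with slide as a block (adjusted p = 0.271), and within slide 2 it gave 1.30 in WT cells (adjusted p = 0.0047). The second probe gave 0.71 and 1.23 in the same 2 slides, and with all 12 arrays it gave 0.81 ± 0.26 in GR-C3 cells (adjusted p = 0.277) and 0.48 ± 0.26 in WT cells (adjusted p = 0.37). The GR-C3 call of the first probe was also lost on leaving out any 1 of GR-C3 Dex replicates 1, 2 and 3, GR-C3 vehicle replicates 1 and 2 or WT vehicle replicates 2 and 3, with values of 0.52 to 0.59.

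**Figure D2:**
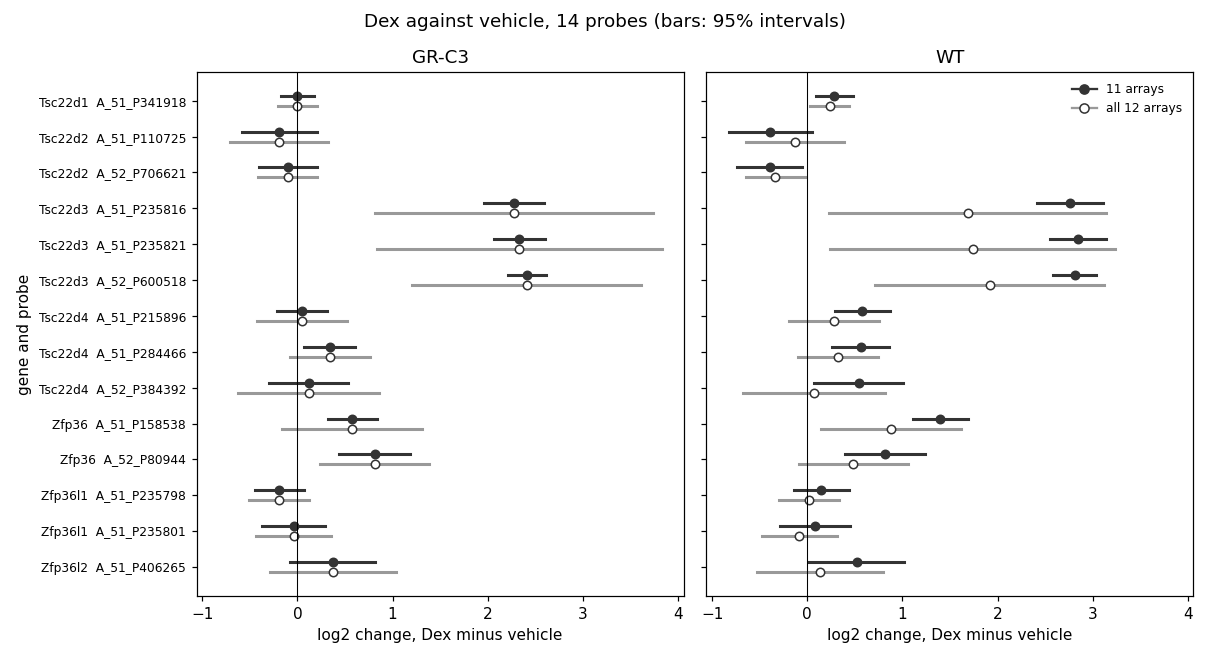
Log2 change under Dex, Dex minus vehicle (horizontal axis), of the 14 probes (vertical axis) in GR-C3 cells on the left and WT cells on the right; filled points are from 11 arrays, open points from all 12, and bars are 95% intervals. The 3 probes of Tsc22d3 lie between 2.28 and 2.41 in GR-C3 cells and between 2.76 and 2.85 in WT cells with 11 arrays, apart from those of the other genes.

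Zfp36l1 and Zfp36l2, whose proteins act in development and in blood and immune cells, did not pass the test for Dex. The brighter probe of Zfp36l1 read 1.76, 1.63 and 1.47 in GR-C3 Dex, against 1.72, 1.75 and 1.97 in GR-C3 vehicle. The readings in WT Dex were 1.78, 1.57 and 1.78, against 1.95, 1.47 and 1.65 in WT vehicle. The groups overlapped in both genotypes, and the 11-array change was -0.19 ± 0.12 in GR-C3 cells (95% interval -0.45 to 0.06) and 0.15 ± 0.13 in WT cells (95% interval -0.14 to 0.44). Its other probe gave -0.04 ± 0.15 in GR-C3 cells and 0.08 ± 0.17 in WT cells. The 12-array changes in WT cells were 0.02 ± 0.14 (95% interval -0.30 to 0.33) and, on the other probe, -0.08 ± 0.18.

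Zfp36l2 had a single probe. It read -3.94, -3.79 and -3.26 in GR-C3 Dex, against -4.18, -3.66 and -4.25 in GR-C3 vehicle. Its WT Dex readings were -3.92, -3.59 and -3.86, against -3.16, -4.32 and -4.30 in WT vehicle. Replicate 1 of WT vehicle was the highest of all 12 arrays here, as it was for the brightest probe of Tsc22d3. The 11-array change was 0.37 ± 0.20 in GR-C3 cells (adjusted p = 0.384) and 0.52 ± 0.22 in WT cells (95% interval 0.02 to 1.02, adjusted p = 0.17). The 12-array change was 0.37 ± 0.30 in GR-C3 cells (adjusted p = 0.685) and 0.14 ± 0.30 in WT cells (95% interval -0.53 to 0.80, adjusted p = 0.851), so 1 array moved the WT value by over 1.5 times.

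Whether the Dex response differed between the genotypes was tested as the interaction, which subtracts the Dex change of WT cells from that of GR-C3 cells. None of the 7 genes passed this test with 11 arrays, where 3 had an unadjusted p under 0.05, against 0.849% of all probes called by limma and 14.3% with such a p. When all 12 arrays were used, the count was also 0, with 0 genes under the unadjusted threshold, against 0.00% and 6.16% of all probes. Zfp36 came nearest with 11 arrays, at -0.82 ± 0.17 on its brighter probe (95% interval -1.21 to -0.44, adjusted p = 0.0687), whereas its probe with the nonamer gave -0.00 ± 0.25 (95% interval -0.56 to 0.56). Over 19 alternatives the adjusted p of the brighter probe ran from 0.0188 to 0.263, with 5 under the threshold. From all 12 arrays the brighter probe gave -0.30 ± 0.47 and the other 0.33 ± 0.37. With slide as a block and 11 arrays the brighter probe gave -0.88 (adjusted p = 0.255) and the other -0.51 (adjusted p = 0.601), neither called.

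Tsc22d3 gave interaction values of -0.48 ± 0.21, -0.52 ± 0.18 and -0.40 ± 0.14 on its 3 probes with 11 arrays. Their adjusted p-values were 0.337, 0.238 and 0.231. In the 12-array fit the same 3 values were 0.59, 0.59 and 0.49, of the opposite sign. The size of the GILZ response was therefore not shown to differ between GR-C3 and WT cells, and the interval of the difference on the brightest probe with 11 arrays was -0.95 to -0.01. The 12-array interactions of Tsc22d4 and Zfp36l2 were 0.02 ± 0.27 and 0.23 ± 0.43, and they too turned with 11 arrays, to -0.22 ± 0.18 and -0.15 ± 0.30. The WT Dex and WT vehicle arrays enter both this test and the Dex change in WT, so these values are not independent.

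The level of 3 of the 7 genes differed between the genotypes under each treatment with 11 arrays. Under Dex, Tsc22d1 was higher and Tsc22d3 and Zfp36 were lower in GR-C3 cells, that is 1 gene higher and 2 lower, against 22.6% and 15.0% of all probes. Under vehicle, Tsc22d1 and Zfp36 were higher and Tsc22d3 lower in GR-C3 cells, that is 2 genes higher and 1 lower, against 14.3% and 11.9% of all probes. In the 12-array fit only 1 gene, Tsc22d1, was called under each treatment, and it was higher. The shares of all probes were then 16.4% higher and 11.3% lower under Dex, and 13.1% higher and 10.3% lower under vehicle. The shares of members called stand on 7 genes and are not read against these backgrounds.

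Tsc22d3 was lower in GR-C3 cells than in WT cells on all 3 probes. Under Dex the brightest probe differed by -1.23 ± 0.14, a level 2.34-fold lower in GR-C3 cells (95% interval -1.54 to -0.91, adjusted p = 0.000143, 11 arrays). The other probes gave -1.31 ± 0.12 (adjusted p = 3.19e-05) and -1.01 ± 0.09 (adjusted p = 3e-05). No GR-C3 Dex array reached the lowest WT Dex array on any of the 3 probes. When all 12 arrays were used, the difference was the same with a standard error of 0.66 and did not pass the test (adjusted p = 0.185). With slide as a block this difference was smaller, at -0.86, and was called with 11 arrays (adjusted p = 0.0423) and with all 12 (adjusted p = 0.04). Under vehicle the brightest probe differed by -0.74 ± 0.16 with 11 arrays (1.67-fold lower, adjusted p = 0.00747) and by -1.82 ± 0.66 with all 12 (adjusted p = 0.0709). With slide as a block the 11-array value under vehicle was -0.35 and was not called (adjusted p = 0.429), and it was also lost without WT vehicle replicate 2 (adjusted p = 0.0771).

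Tsc22d1, which had a single probe, was higher in GR-C3 cells under both treatments, with 12 and with 11 arrays. Under Dex the difference was 0.41 ± 0.09 with all 12 arrays (1.33-fold, adjusted p = 0.00803) and 0.41 ± 0.08 with 11 (adjusted p = 0.00278). Under vehicle it was 0.65 ± 0.09 with all 12 arrays (1.57-fold, adjusted p = 0.000629) and 0.70 ± 0.09 with 11 (1.62-fold, adjusted p = 0.000406). All 6 GR-C3 arrays lay above all 6 WT arrays, from 4.12 upward in GR-C3 cells and up to 3.84 in WT cells. With slide as a block the difference under Dex was 0.40 and was not called (adjusted p = 0.107 with 12 arrays).

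The Zfp36 differences between genotypes were smaller. Under Dex the brighter probe was lower in GR-C3 cells by -0.43 ± 0.12 with 11 arrays (1.34-fold lower, adjusted p = 0.0163), and the probe with the nonamer gave 0.33 ± 0.17 (adjusted p = 0.147), of the opposite sign. Under vehicle the brighter probe was higher in GR-C3 cells by 0.40 ± 0.13 (adjusted p = 0.0464) and the other gave 0.33 ± 0.19 (adjusted p = 0.219). From all 12 arrays the brighter probe gave -0.43 ± 0.34 under Dex and -0.12 ± 0.34 under vehicle, and the other gave -0.00 ± 0.26 under vehicle. The call under Dex was lost without GR-C3 Dex replicate 2 (adjusted p = 0.0517). That under vehicle was lost without any 1 of the GR-C3 Dex, GR-C3 vehicle or remaining WT vehicle arrays (0.32 to 0.45), and with slide as a block, where it was 0.17. With that block and 11 arrays the probe with the nonamer was called higher under vehicle, at 0.90 (adjusted p = 0.0414). Under Dex the brighter probe then gave -0.72 (adjusted p = 0.0483) and the other 0.38 (adjusted p = 0.231).

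Among the genes with no call between the genotypes with 11 arrays, Tsc22d4 gave -0.29 ± 0.12 under Dex (adjusted p = 0.0811) and -0.07 ± 0.13 under vehicle. Tsc22d2 gave -0.09 ± 0.14 under Dex and -0.385 ± 0.15 under vehicle (adjusted p = 0.0885), and its other probe gave 0.37 ± 0.18 and 0.17 ± 0.20. Zfp36l1 gave -0.09 ± 0.12 under Dex and 0.25 ± 0.13 under vehicle, and Zfp36l2 gave 0.13 ± 0.20 and 0.28 ± 0.22. None of these passed with all 12 arrays either, and the values under vehicle were -0.31 ± 0.19 for Tsc22d4, -0.32 ± 0.14 and 0.43 ± 0.23 for the 2 probes of Tsc22d2, 0.12 ± 0.14 for Zfp36l1 and -0.10 ± 0.30 for Zfp36l2. WT vehicle replicate 1 alone thus turned the sign for Zfp36l2 and moved the values of Tsc22d4, the second Tsc22d2 probe and Zfp36l1 by over 1.5 times.

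Markers of other cell types differed between the genotypes too. Levels of each list were summed on the linear scale, in which the brightest gene of a list weighs most. The counts of called markers stand beside the shares of all probes with 11 arrays. Those were 22.6% higher and 15.0% lower under Dex, and 14.3% and 11.9% under vehicle. The sum of the 10 fibroblast markers was 1129 to 1405 in GR-C3 cells and 1017 to 1470 in WT cells. Of these 10, 0 were called higher and 4 lower in GR-C3 cells under Dex, and 0 and 3 under vehicle. The cartilage sum, with 3 of 4 genes among the probes tested, was 5.63 to 6.04 over the GR-C3 arrays and 43.1 to 56.2 over the WT arrays, and all 3 genes were called lower in GR-C3 cells under both treatments with 11 arrays. The macrophage sum was 5.15 to 6.61 in GR-C3 cells and 6.61 to 8.60 in WT cells, with 2 of 7 genes called lower under Dex and 3 under vehicle. The sum of the 4 skeletal muscle markers was 2.58 to 3.22 in GR-C3 cells and 0.452 to 0.593 in WT cells, with 3 genes called higher under Dex and 2 under vehicle.

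Of the other lists, the Schwann and neural crest sum was 1.16 to 1.32 in GR-C3 cells and 0.317 to 0.425 in WT cells, with 4 of 4 genes called higher under Dex and 3 under vehicle. The endothelial sum was 1.93 to 2.58 in GR-C3 cells and 0.606 to 0.797 in WT cells, with 2 of 3 genes called higher under each treatment. The epithelial sum was 1.59 to 2.44 in GR-C3 cells and 0.466 to 0.711 in WT cells, but of its 3 genes 2 were called higher and 1, Krt14, lower under Dex, and 1 higher under vehicle. Krt14 was named after its values were seen. The endothelial genes Pecam1 and Cdh5 and the epithelial genes Epcam and Cdh1 were not above background on all arrays of any group. The same held for the macrophage gene Itgam and the cartilage gene Matn1. The part of these markers in the genotype differences was not tested.

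**Figure D3:**
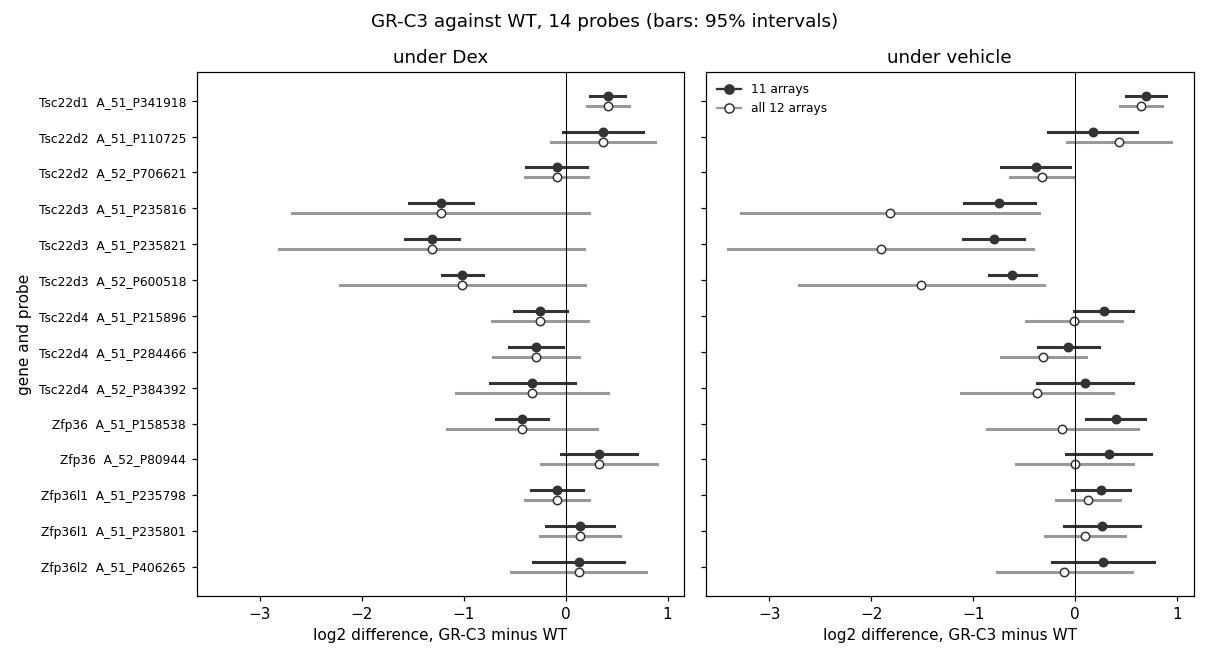
Log2 difference between the genotypes, GR-C3 minus WT (horizontal axis), of the 14 probes (vertical axis) under Dex on the left and under vehicle on the right; filled points are from 11 arrays, open points from all 12, and bars are 95% intervals. Tsc22d1 lies above 0 and the 3 Tsc22d3 probes lie below 0 in both panels.

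The order of the 4 groups by mean level was the same on all 3 probes of Tsc22d3 and varied with the probe and the arrays for Zfp36. Without WT vehicle replicate 1, the brightest Tsc22d3 probe averaged 3.62 ± 0.10 in GR-C3 Dex (SD, n = 3), 1.34 ± 0.16 in GR-C3 vehicle, 4.85 ± 0.26 in WT Dex and 2.08 ± 0.14 in WT vehicle (n = 2). From high to low its groups ran WT Dex, GR-C3 Dex, WT vehicle and GR-C3 vehicle, and no neighbours overlapped. The brighter Zfp36 probe averaged 0.17 ± 0.06 in GR-C3 Dex, -0.41 ± 0.14 in GR-C3 vehicle, 0.59 ± 0.20 in WT Dex and -0.81 ± 0.0028 in WT vehicle. Here GR-C3 vehicle lay above WT vehicle, and again no neighbours overlapped. If replicate 1 is kept, WT vehicle averaged -0.29 on this probe, above GR-C3 vehicle, which is the order of Tsc22d3. The Zfp36 probe with the nonamer averaged -1.93 in GR-C3 Dex and -2.75 in GR-C3 vehicle, against -2.26 in WT Dex and, without replicate 1, -3.08 in WT vehicle, so GR-C3 Dex was highest there and overlapped WT Dex. For Zfp36l1 and Zfp36l2 no 2 groups differed in a called comparison.

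Among 14431 genes with a probe above background on all arrays, those whose levels followed Tsc22d3 most closely over the 12 arrays were Tgm2, Gclc, Fam107a, Ablim3 and Sult1a1, with Pearson correlations of 0.982 to 0.990. These are descriptions over 12 points that fall into 4 groups and share the Dex treatment. Gclc encodes the catalytic subunit of glutamate-cysteine ligase, which starts glutathione synthesis. It read 1.98, 1.97 and 1.94 in GR-C3 Dex, against 0.65, 0.69 and 0.41 in GR-C3 vehicle. WT Dex arrays read 3.09, 2.88 and 3.01, against 2.93, 1.10 and 1.04 in WT vehicle. As with Tsc22d3, the first WT vehicle array sat with the WT Dex arrays, and WT Dex lay above GR-C3 Dex. Tgm2, which encodes the cross-linking enzyme transglutaminase, gave 1.17 in GR-C3 cells and 1.27 in WT cells with 11 arrays, and 0.80 in WT cells with all 12.

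Those that followed Zfp36 most closely were Mt1, Mlph, Arhgef26, Samhd1 and Ap2a2, with correlations of 0.976 to 0.984. Mt1 encodes metallothionein, a metal-binding protein induced by zinc and glucocorticoids. It read 5.16, 5.07 and 4.97 in GR-C3 Dex, against 3.67, 3.65 and 3.95 in GR-C3 vehicle. The readings in WT Dex were 5.57, 6.24 and 6.29, against 6.26, 3.07 and 3.06 in WT vehicle. Its difference between the genotypes was -0.96 under Dex and, with 11 arrays, 0.69 under vehicle, which became -0.37 with all 12. For Samhd1, a dNTP hydrolase, it was -0.31 under Dex and 0.46 under vehicle with 11 arrays, and 0.04 under vehicle with all 12. Both genes were chosen because their levels follow those of Zfp36, so these values describe the choice and are not tested.

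As a gauge of the Dex response, Fkbp5, a GR co-chaperone, changed by 3.07 ± 0.14 in GR-C3 cells and 4.72 ± 0.16 in WT cells with 11 arrays. Per1, a clock gene and GR target, changed by 1.92 ± 0.11 in GR-C3 cells and 2.14 ± 0.12 in WT cells. In WT cells the 12-array values were 3.33 ± 0.85 for Fkbp5 and 1.45 ± 0.43 for Per1, and neither passed. Of 7 such Dex-induced genes tested, Dex raised 6 in GR-C3 cells and all 7 in WT cells with 11 arrays, and 0 passed with all 12. Of all probes, 1.77% were called higher in GR-C3 cells and 4.81% in WT cells with 11 arrays. The genes were listed as Dex-induced, with earlier results of these data known, so their count is a gauge and not a test. Their median change with 11 arrays was 1.10 in GR-C3 cells and 2.14 in WT cells, against 0.01 and -0.00 over all probes. With all 12 arrays the WT median was 1.45, against -0.01 over all probes. Mt2, Errfi1 and Sgk1 were among these genes, with changes of 2.56, 0.87 and 0.77 in GR-C3 cells and 3.69, 2.63 and 2.06 in WT cells, where all 12 arrays gave 2.53, 1.76 and 1.37.

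Among the partners that GILZ is known to bind, Fos rose and Jun fell under Dex in WT cells with 11 arrays. Of 12 tested, 0 passed in GR-C3 cells, against 1.77% of all probes called higher and 0.925% lower, and 1 rose and 1 fell in WT cells, against 4.81% and 6.35%. Their median change was -0.03 in GR-C3 cells and 0.01 in WT cells. Fos, an AP-1 subunit, read -1.67, -1.88 and -1.94 in GR-C3 Dex, against -2.08, -2.21 and -1.75 in GR-C3 vehicle. Its WT Dex readings were 0.18, -0.46 and -0.13, against 0.11, -2.08 and -1.70 in WT vehicle. The GR-C3 groups overlapped and the WT groups overlapped through vehicle replicate 1 alone. Fos changed by 0.18 ± 0.19 in GR-C3 cells (adjusted p = 0.656) and by 1.75 ± 0.21 in WT cells (adjusted p = 0.000582), an interaction of -1.57 ± 0.28 (adjusted p = 0.0357). The interaction call was lost with slide as a block (-2.16, adjusted p = 0.0708), without a filter on dim probes (adjusted p = 0.0773) and on leaving out any 1 of 8 arrays (-1.77 to -1.38): WT Dex replicate 3, GR-C3 Dex replicates 2 and 3, each GR-C3 vehicle array and WT vehicle replicates 2 and 3. Jun, another AP-1 subunit, gave -0.37 ± 0.11 in GR-C3 cells (adjusted p = 0.132) and fell in WT cells, by -0.62 ± 0.13 (adjusted p = 0.0122). That call was lost with slide as a block (-0.46, adjusted p = 0.191), with the 2 WT groups alone (adjusted p = 0.0886) and without WT vehicle replicate 2 (-0.57) or 3 (-0.68). In the 12-array fit 0 of the 12 passed in either genotype, and Fos gave 1.09 ± 0.44 and Jun -0.38 ± 0.19 in WT cells. The interaction of Fos was then -0.91.

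Kinases and scaffolds that act with TSC22D proteins in the WNK pathway, which governs cell volume and ion transport, gave 1 Dex call in each genotype. Of 8 tested with 11 arrays, 1 rose in GR-C3 cells, with a median of 0.06, and 1 rose in WT cells, with a median of 0.38. Of all probes, 1.77% were called higher in GR-C3 cells and 4.81% in WT cells. Wnk4 read -2.31, -2.53 and -2.50 in GR-C3 Dex, against -2.54, -2.43 and -2.61 in GR-C3 vehicle. WT Dex arrays read -0.73, -0.40 and -0.42, against -0.50, -2.37 and -2.56 in WT vehicle. It gave 0.08 ± 0.12 in GR-C3 cells and rose by 1.95 ± 0.13 in WT cells (adjusted p = 1.97e-05), and the interaction of -1.87 ± 0.18 passed the test (adjusted p = 0.00189). Over all 12 arrays the WT change was 1.29 ± 0.41 and the interaction -1.21 ± 0.58, and neither passed. Wnk1 rose in GR-C3 cells by 0.85 ± 0.12 (adjusted p = 0.00404) with 11 arrays and gave 0.42 ± 0.13 in WT cells (adjusted p = 0.067). The GR-C3 change from all 12 arrays was 0.85 ± 0.13 (adjusted p = 0.0385), a call that was lost with the replicate block (adjusted p = 0.0799), without a filter on dim probes (adjusted p = 0.0807) and on leaving out any 1 of 7 arrays (0.78 to 0.89): GR-C3 Dex replicates 2 and 3, each GR-C3 vehicle array, WT Dex replicate 3 and WT vehicle replicate 2.

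The transcripts known as TTP targets, taken from cytokine, chemokine and early response genes with AU-rich elements, were called in both directions under Dex with 11 arrays. Of 30 listed, 22 were tested, and 7 of the others were on the array but too dim. In GR-C3 cells 0 rose and 4 fell, with a median of -0.14, against 1.77% of all probes called higher and 0.925% lower. In WT cells 4 rose and 8 fell, with a median of -0.16, against 4.81% and 6.35%. The medians over all probes were 0.01 in GR-C3 cells and -0.00 in WT cells. When all 12 arrays were used, 0 passed in either genotype, with medians of -0.14 and -0.11. With slide as a block and 11 arrays, 1 fell in GR-C3 cells, and 2 rose and 3 fell in WT cells. The 4 that fell in GR-C3 cells were Ccl2, Il6, Ptgs2 and Plk3, of which the last 2 were named after their values were seen.

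Ccl2, a chemokine that attracts monocytes, read 4.19, 4.19 and 4.18 in GR-C3 Dex, against 4.90, 5.07 and 5.08 in GR-C3 vehicle. The readings in WT Dex were 2.84, 2.85 and 2.58, against 2.85, 4.997 and 4.70 in WT vehicle. Its WT Dex arrays lay below the GR-C3 Dex arrays, and the first WT vehicle array lay among those of WT Dex. The change was -0.83 ± 0.11 in GR-C3 cells (adjusted p = 0.00388) and -2.09 ± 0.12 in WT cells (adjusted p = 8.61e-06), and the interaction of 1.26 ± 0.17 passed the test (adjusted p = 0.00993). The interaction call was lost with slide as a block (1.12, adjusted p = 0.195), as was the call in GR-C3 cells (-0.89, adjusted p = 0.0507), and the interaction call was also lost without WT vehicle replicate 2 (1.12, adjusted p = 0.0623). Il6, a pro-inflammatory cytokine, changed by -1.17 ± 0.12 in GR-C3 cells and -1.84 ± 0.14 in WT cells, and its interaction of 0.67 ± 0.19 did not pass (adjusted p = 0.148). Ccl7, another monocyte chemokine, gave -0.40 ± 0.11 in GR-C3 cells (adjusted p = 0.102) and changed by -1.06 ± 0.12 in WT cells (adjusted p = 0.00052). The 12-array WT changes were -1.43 ± 0.42 for Ccl2, -1.22 ± 0.39 for Il6 and -0.71 ± 0.24 for Ccl7, none of which passed, and the interaction of Ccl2 was 0.60 ± 0.59.

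The transcripts of this list that rose in WT cells were Fos, Dusp1, Cdkn1a and Pim1, of which Cdkn1a and Pim1 were named after their values were seen. Under Dex, 11 of the 22 were higher and 5 lower in GR-C3 than in WT cells with 11 arrays, against 22.6% and 15.0% of all probes. The median difference was 0.50, against 0.11 over all probes. From all 12 arrays 10 were higher and 4 lower, against 16.4% and 11.3%. The 11-array count of higher genes was 6 with slide as a block. The 5 lower were Fos, Dusp1, Ccnd1, Cdkn1a and Mcl1, and Ccnd1 and Mcl1 were likewise named after their values were seen. Under vehicle, 6 of the 22 were higher and 2 lower in GR-C3 cells with 11 arrays, against 14.3% and 11.9% of all probes. The median difference there was 0.32, against 0.08 over all probes. With slide as a block, 1 was higher and 1 lower under vehicle. The interaction was called higher for 1 of the 22 and lower for 1, against 0.849% of all probes called in either direction. The arrays measure transcript level and not stability, so decay through TTP was not measured.

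**Figure D4:**
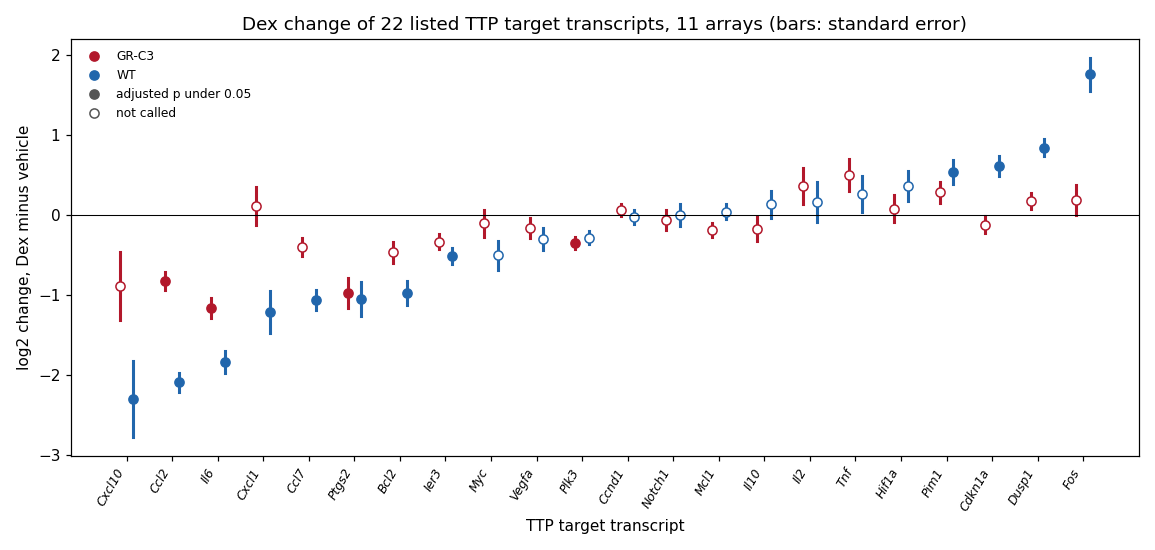
Log2 change under Dex, Dex minus vehicle (vertical axis), of the 22 TTP target transcripts tested (horizontal axis, ordered by the WT change), in GR-C3 cells on the left of each pair and WT cells on the right, from 11 arrays; filled points passed an adjusted p under 0.05 and bars are standard errors. Ccl2 lies at -0.83 in GR-C3 cells and -2.09 in WT cells, and Fos lies at 0.18 and 1.75.

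The machinery that TTP recruits gave 1 Dex call. Of 25 deadenylation and decay genes tested with 11 arrays, 0 passed in GR-C3 cells and 1 rose in WT cells, where 4.81% of all probes were called higher, and the medians were 0.01 in GR-C3 cells and -0.10 in WT cells. The 1 was Edc3, which encodes an enhancer of decapping and changed by 0.62 ± 0.15 (adjusted p = 0.0262). Its call was lost with slide as a block (0.46, adjusted p = 0.318), with the 2 WT groups alone (adjusted p = 0.0653) and without WT Dex replicate 3 (0.53) or WT vehicle replicate 2 (0.64) or 3 (0.59). Of 16 other proteins that bind AU-rich or stem-loop elements, 0 passed in GR-C3 cells and 1 rose in WT cells, against the same 4.81%. That gene was Celf2, with 0.40 ± 0.09 in GR-C3 cells (adjusted p = 0.0617) and 0.39 ± 0.11 in WT cells (adjusted p = 0.0423). The WT call of Celf2 was lost after normexp (adjusted p = 0.0503), without a filter (adjusted p = 0.075), with slide as a block (0.43, adjusted p = 0.196), with the 2 WT groups alone (adjusted p = 0.205) and on leaving out any 1 array other than WT Dex replicates 1 and 3 (0.32 to 0.41). The GR-C3 value of Celf2 passed after quantile normalization (0.42, adjusted p = 0.0231) and with the 2 GR-C3 groups alone (adjusted p = 0.0337). From all 12 arrays 0 genes of either list passed for Dex in either genotype.

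The kinase pathway that phosphorylates TTP and holds it inactive, through p38 and MK2, gave few Dex calls among 18 genes with 11 arrays. In GR-C3 cells 0 rose and 1 fell, against 1.77% of all probes called higher and 0.925% lower. In WT cells 1 rose and 1 fell, against 4.81% and 6.35%. These counts are not read as a result about the kinase pathway. Dusp1, a phosphatase that switches off p38, read 2.81, 2.76 and 2.73 in GR-C3 Dex, against 2.62, 2.51 and 2.66 in GR-C3 vehicle. Its WT Dex readings were 4.02, 3.69 and 3.78, against 3.84, 2.96 and 3.02 in WT vehicle. It gave 0.17 ± 0.10 in GR-C3 cells (adjusted p = 0.412) and rose in WT cells by 0.84 ± 0.11 (adjusted p = 0.00116), and its interaction of -0.67 ± 0.15 did not pass (adjusted p = 0.0812). Map2k6, a kinase that activates p38, fell by -0.80 ± 0.11 in GR-C3 cells (adjusted p = 0.0038) and by -0.74 ± 0.12 in WT cells (adjusted p = 0.0034). Neither gene passed for Dex with all 12 arrays, where the WT changes were 0.56 ± 0.20 for Dusp1 and -0.48 ± 0.20 for Map2k6.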

How the data were processed

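The 12 arrays were scanned and quantified by the authors with Agilent Feature Extraction, version 9.5.3.1 per the file headers and 9.5 per the submitters' processing notes. The deposited values are processed signal intensity, background-subtracted by that software, and the series matrix holds the same intensity values for every array, with column medians of 77.9 to 154 and no log scale or centring. Probe positions are of build mm7, per the file headers. From the deposited intensity, log2 values were computed here, spots of a probe were averaged, and log2 of the array's 75th percentile over non-control spots was subtracted. A probe was kept if, in some group, every array read it as well above background, which left 30932 probes with 12 arrays and 31445 with 11. The comparisons came from a limma fit (version 3.58.1, R 4.3.3) with 1 coefficient per group, and p-values were adjusted by Benjamini-Hochberg over all kept probes. The brightest kept probe stands for a gene in counts. The threshold of a call is an adjusted p under 0.05. The fits were tested on simulated data.

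The 7 genes and all gene lists were chosen with earlier results of these data known. Genes were named by rule: all members, up to 4 called genes of each list, the 5 genes most like Tsc22d3 and Zfp36, and Fkbp5 and Per1. Gene names were updated through RefSeq by accession for 22951 probes, by symbol for 6659 and by synonym for 3109, and 8455 kept the file's name. Deviations of same-numbered arrays of different groups correlated at -0.23 to 0.20, with 4 of 18 pairs over 0.1. Those of differently numbered arrays correlated at -0.31 to 0.31, with 4 of 36 pairs over 0.1. The main fit did not pair samples by replicate number, and whether the numbers pair samples was not tested. Alternatives covered the normalization, background correction, filter, 1 probe per gene, slide, replicate block, the 2 groups alone, the series matrix values and leaving out each array. The series matrix values are the same as the processed signal, so that alternative repeats the main fit and is no check of it.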

Additional observations from a re-analysis of the deposited data

Results flagged for a closer look

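With 11 arrays the Dex change differed between the genotypes, by the test of the interaction itself (GR-C3 change minus WT change, limma), for 12 of the genes named above, none of them a member of the 2 families. Of all probes, 0.849% were called by this test. The genes had been named for a Dex call or for likeness to a member on these same arrays, so their count is not read against that share. Among GILZ partners and the WNK list these were Fos at -1.57 (adjusted p = 0.0357) and Wnk4 at -1.87 (adjusted p = 0.00189). Among TTP targets, besides Fos, it was Ccl2 at 1.26 (adjusted p = 0.00993). Of the Dex-induced genes, Errfi1 gave -1.76 (adjusted p = 0.000701), Fkbp5 gave -1.65 (adjusted p = 0.00864), Sgk1 gave -1.29 (adjusted p = 0.00392) and Mt2 gave -1.13 (adjusted p = 0.025). The other 5 had been chosen because their levels follow those of a member over the same arrays, so their values describe that choice and are given without a p. Fam107a, one of the genes most like Tsc22d3, gave -1.60. Among those most like Zfp36, Mlph gave -1.61, Mt1 gave -1.65, Arhgef26 gave -1.0004 and Samhd1 gave -0.77. All 12 moved less under Dex in GR-C3 cells than in WT cells, which describes a chosen set and is not a result over the genes at large. With slide as a block 6 of the 12 calls were lost, those of Fos, Ccl2, Fkbp5, Mt2, Arhgef26 and Samhd1, and without a filter on dim probes 4 were lost, those of Fos, Mt2, Mt1 and Samhd1. Without WT vehicle replicate 2, and without replicate 3, 6 calls were left. Wnk4, Errfi1 and Sgk1, which had not been chosen by likeness to a member, kept their calls with slide as a block and without a filter on dim probes. With all 12 arrays no probe passed the interaction test, and 1906 had an unadjusted p under 0.05. Groups of 3 arrays were not tested for single outlying arrays.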

How the results depend on the processing

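With 11 arrays, the Dex rise of Tsc22d3 passed the test under all 20 alternatives in both genotypes, and that of Zfp36 under 10 in GR-C3 cells and 20 in WT cells. The alternatives counted here include the series matrix values, whose outcome could not differ from the main fit. The rise of Tsc22d4 in WT cells passed under 14 of 20. From all 12 arrays these rises passed under few of the 21 alternatives: Tsc22d3 under 3 in GR-C3 cells and 2 in WT cells, Zfp36 under 2 in each and Tsc22d4 under 1 in WT cells. Leaving out WT vehicle replicate 1 is among the 21 and uses the same 11 arrays again. The higher Tsc22d1 level in GR-C3 cells passed under 19 of 20 under Dex and 20 of 20 under vehicle with 11 arrays, and under 20 and 21 of 21 with all 12. Among the members, the 12-array count of genes called for Dex in GR-C3 was 0 and became 1 with slide as a block and 2 with the 2 groups alone. That for Dex in WT was 0 and became 2 with slide as a block. The genotype count under vehicle was 1 and became 2 after normexp, and that under Dex was 1 and became 2 with slide as a block and 3 with the 2 groups alone. With 11 arrays, the count for Dex in GR-C3 was 2 and became 1 after normexp, without a filter and with slide as a block. The interaction count was 0 and became 1 (Zfp36) with quantile normalization, with normexp, with the filter on all arrays and with the replicate block. The genotype count under vehicle was 3 and became 1 with slide as a block. Leaving out 1 array gave counts with 12 arrays of 0 to 2 for Dex in GR-C3, 0 to 3 for Dex in WT, 0 to 0 for the interaction, 1 to 3 under vehicle and 1 to 3 under Dex. With 11 arrays these were 1 to 2, 2 to 4, 0 to 1, 1 to 4 and 2 to 4. Between the 12-array and the 11-array fit, the sign of the genotype difference under vehicle turned for 2 members, Zfp36 and Zfp36l2, and for 6 other named genes, and that of the interaction for 3 members, Tsc22d3, Tsc22d4 and Zfp36l2, and for 5 others. Of these, 5 were called on leaving out WT vehicle replicate 1: the differences under vehicle of Zfp36, with -0.38 to 0.40 over the arrays left out, Mt2 with -1.19 to 0.56, Mt1 with -0.91 to 0.69 and Mlph with -0.83 to 0.65, and the interaction of Mt2 with -1.13 to 0.62. With slide as a block, the Zfp36 probe A_52_P80944 gave 0.90 under vehicle with 12 arrays, which was called (adjusted p = 0.0392, limma), and Mt1 gave -0.10 with 11. The cause was not tested.

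Over all probes, the count for Dex in GR-C3 was 34 with 12 arrays, against 137 with quantile normalization (53 higher and 84 lower, against 28 and 6), 19 after normexp, 2 without a filter, 21 with 1 probe per gene, 424 with slide as a block, 16 with the replicate block and 773 with the 2 groups alone. For Dex in WT it was 15, against 67 after normexp, 23 with the filter on all arrays, 25 with 1 probe per gene, 1253 with slide as a block and 0 without a filter, with the replicate block or with the 2 groups alone. With slide as a block it was 40 for the interaction, 2073 under vehicle and 4418 under Dex, against 0, 7220 and 8569, and the interaction gave 1 with the replicate block. With 11 arrays slide as a block gave 385 for Dex in GR-C3, 1247 for Dex in WT, 38 for the interaction, 1987 under vehicle and 4299 under Dex, against 849, 3509, 267, 8254 and 11836. The 2 WT groups alone gave 1724, normexp gave 503 for Dex in GR-C3, and no filter gave 117 for the interaction. Quantile normalization gave 587 higher and 595 lower for Dex in GR-C3 with 11 arrays, against 558 and 291, and 4149 and 4391 for the genotypes under Dex with 12, against 5059 and 3510. The replicate block otherwise changed the call of Tsc22d2 in 2 comparisons with 11 arrays, to -0.47 for Dex in WT and -0.46 under vehicle.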
